A study of Rattus norvegicus with 40 samples.

Results

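The miR-10 and miR-196 genes lie among the Hox genes, and their mature products were followed here in rat plasma. The rows of the count matrix for miR-10a, miR-10b, miR-196a, miR-196b and miR-196c, both arms of each, were taken by name (rno-miR-10a-5p, rno-miR-10b-5p, rno-miR-196b-5p and so on, written below without the species prefix), which gave 10 of the 752 miRNAs in the matrix, and all 10 had at least 1 read in the libraries. Small RNA was sequenced from tail-vein EDTA plasma of 20 adult male Sprague-Dawley rats, each bled under isoflurane 2 days (D2) and 9 days (D9) after surgery, in 40 libraries. Lateral fluid-percussion injury was used to produce TBI in 16 rats, and 4 sham-operated controls had the same surgery with a craniotomy but no impact. Of the injured rats, 7 had epilepsy (TBI+), diagnosed by a seizure on video-EEG months later, and 9 did not (TBI−). All rats, controls included, had been anesthetized, operated on and bled, so no value here comes from an unoperated animal. The comparisons ask whether plasma levels differed between injured and sham-operated rats, between TBI+ and TBI− rats, and between the days.

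Hox genes encode transcription factors that set position along the body axis, and the miRNAs embedded in their clusters are transcribed in many of the same territories, which leaves posterior tissues rich in them. The miR-10 family targets Hox and other transcripts, and miR-196 is known for repressing Hoxb8. A miRNA hairpin yields a 5p and a 3p arm, of which the one loaded into Argonaute is kept and the partner is usually degraded. Bases 2 to 8 of the mature strand, the seed, carry most of the target recognition.

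The mature sequences are shown to give how far the members differ. RefSeq (assembly GRCr8) held 9 of the 10 members, and the seeds are in capitals.
miR-10a-5p: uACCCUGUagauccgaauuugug
miR-10b-5p: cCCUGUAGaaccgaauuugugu
miR-10a-3p: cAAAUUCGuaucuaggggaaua
miR-10b-3p: aCAGAUUCgauucuaggggaa
miR-196a-5p: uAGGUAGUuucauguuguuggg
miR-196b-5p: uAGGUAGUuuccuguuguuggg
miR-196c-5p: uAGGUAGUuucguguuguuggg
The 3 miR-196 5p arms shared the seed AGGUAGU and differed at a single base (A12C in miR-196b and A12G in miR-196c, counted from the 5′ end of miR-196a-5p). The annotated miR-10b-5p starts 2 bases later than miR-10a-5p, and in the Mir10b hairpin the 2 bases before that start are ua, the same as the first 2 of miR-10a-5p. Over the 21 bases that the annotated strands share, 20 were identical and the difference was U12A, counted along miR-10a-5p. The 3p arms differed at 3 of 20 aligned bases. In the next lines the capitals mark the bases that differ between miR-10a and miR-10b.
miR-10a-5p: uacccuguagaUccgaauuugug
miR-10b-5p: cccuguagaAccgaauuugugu
miR-10a-3p: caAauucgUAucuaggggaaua
miR-10b-3p: acaGauucgAUucuaggggaa

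On GRCr8, Mir10a lay between Hoxb5 and Hoxb4 and Mir196c between Hoxb13 and Hoxb9, both on chromosome 10. Mir10b lay inside the gene span of Hoxd4 on chromosome 3. Mir196a lay between Hoxc10 and Hoxc9 on chromosome 7, and Mir196b between Hoxa9 and Hoxa10 on chromosome 4. Mir615, a further Hox-cluster miRNA that was compared with them, overlapped Hoxc5 and Hoxc6 on chromosome 7.

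Library totals ran from 404542 to 2562083 reads on D2 and from 140636 to 2864893 on D9. The 4 sham libraries of D9 were the shallow ones, at 140636 to 358202 reads, so that 3 reads there stood for 8.38 to 21.3 CPM (counts for each 1000000 reads). Levels are given as CPM, the share of a library's miRNA reads, with SD over rats. Fewer releasing cells and less miRNA per cell cannot be told apart in such values.

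The miR-10 5p arms were among the most abundant miRNAs of the plasma. miR-10a-5p had 3133797 reads over the 40 libraries and miR-10b-5p 3139492, and in each library their counts differed by −1.17% to 0.727% of one another. The pair is therefore treated as 1 signal and described by miR-10a-5p, and how much of it came from each gene cannot be told apart. The 2 rows together took 13.6% of all reads, with 6.63% to 21.0% per library, and 7.30% when counted once. miR-10a-5p averaged 63929 ± 20669 CPM (n = 40) and ranged from 33122 to 104951 CPM. miR-22-3p (142727 ± 53051 CPM) and miR-92a-3p (109253 ± 26412 CPM) stood above the pair in mean CPM, and miR-192-5p (52961 ± 27179 CPM) and miR-30a-5p (40672 ± 8397 CPM) next below it. The gaps to miR-192-5p and miR-30a-5p were within or near 1 SD of these means, and their order was not tested.

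The 3p arms of miR-10 were present at a small fraction of that level. miR-10a-3p averaged 45.3 ± 31.5 CPM and miR-10b-3p 16.7 ± 9.97 CPM over the 40 libraries. They differ at enough bases for their reads to be counted apart, unlike the 5p arms. The miR-196 5p arms were of the same order as the miR-10 3p arms. miR-196b-5p averaged 45.3 ± 22.6 CPM, miR-196a-5p 19.5 ± 9.97 CPM and miR-196c-5p 13.8 ± 8.94 CPM. The order from b to a to c held, ties included, in 39 of 40 libraries. Their totals of 2148, 935 and 635 reads are small, and the 3p arms of miR-196 were near the limit of detection, with 17 reads of miR-196a-3p in 7 libraries, 55 of miR-196b-3p in 18 and 62 of miR-196c-3p in 26. No level or fold is read from those 3 arms.

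The count of miR-196b-5p was an even number in 36 of 40 libraries. Over the 211 miRNAs averaging 10 reads or more per library, the median share of libraries with an even count was 50%. Halved, its total would be 1074 reads, still above the 935 of miR-196a-5p. miR-196b-3p was even in 17 of the 18 libraries that had it. Folds between groups are not touched by a constant factor of this kind, but the level of miR-196b against the other members is.

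On D2, miR-10a-5p was higher in the mean of the injured rats than in that of the sham-operated rats, by less than the threshold allowed. The sham libraries held 41674, 68374, 53410 and 74680 CPM. TBI+ ran from 60978 to 104951 CPM with a median of 76011 CPM, and TBI− from 52757 to 103410 CPM with a median of 86541 CPM. The groups overlapped: no TBI library was below the lowest sham rat, but 13 of the 64 pairs of a TBI and a sham rat had the sham rat higher. Mean levels were 59535 ± 14878 CPM (n = 4) in sham and 79007 ± 17896 CPM (n = 16) in TBI. By edgeR's quasi-likelihood test, log2FC was 0.51 (SE 0.22, adjusted p = 0.215) for TBI against sham, which shares its control libraries with the values for TBI+ (0.48, SE 0.24, adjusted p = 0.322) and TBI− (0.54, SE 0.24, adjusted p = 0.234). The median log2FC of all 565 miRNAs tested on D2 was 0.07.

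**Figure D1:**
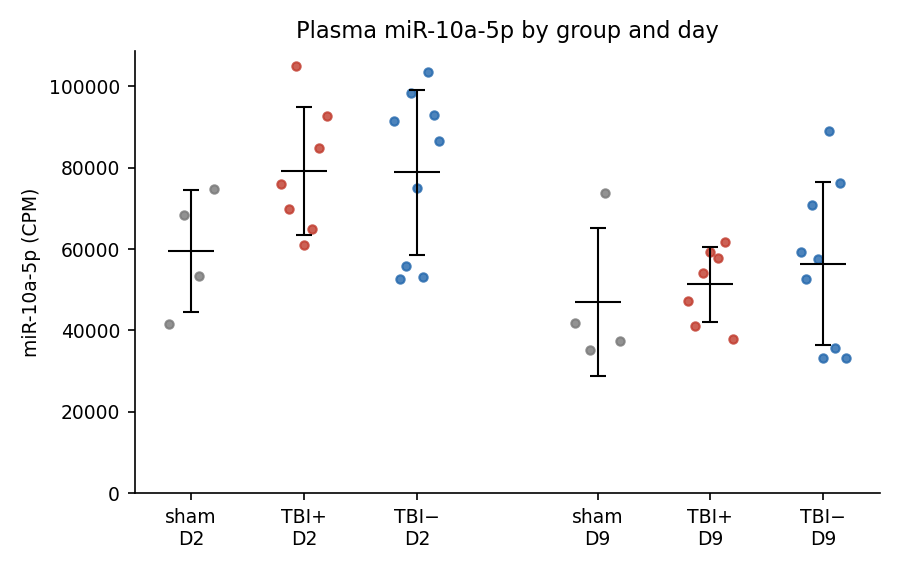
miR-10a-5p in each of the 40 libraries, in CPM on a linear axis from 0, by group and day. Points are rats, wide bars the group means and whiskers ± SD. On D2 the TBI points spread from 52757 to 104951 CPM against 41674 to 74680 CPM in sham, and on D9 the 3 groups overlap over most of their range.

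The call depended on the processing. The paper, which used DESeq2, lists miR-10a-5p and miR-10b-5p as upregulated in TBI against sham on D2, each with a log2FC of 0.58. DESeq2 made the call here too (log2FC 0.58, adjusted p = 0.0321), where edgeR did not. DESeq2 gave no adjusted p to 166 of the 565 miRNAs, while edgeR adjusted over all of them. With rarely read miRNAs filtered out, which left 307, edgeR gave a log2FC of 0.58 (adjusted p = 0.0554). How far the tool or the filter made the difference was not tested. An exact two-sided permutation test on log2 CPM gave p = 0.0594 (adjusted p = 0.291 over 8 comparisons), with the TBI rat higher in 51 of 64 pairs. Without sham rat 1, the lowest of the 4, log2FC was 0.33 (adjusted p = 0.548 by edgeR). With the run of library numbers as a covariate it was 0.37 (adjusted p = 0.884 by edgeR). Over all miRNAs, the 35 calls for TBI against sham on D2 dropped to 22 without sham rat 1 and to 12 with the run covariate. Among the 4 TBI+ and 4 sham libraries of 1 such run TBI+ exceeded sham by 0.42 on the log2 scale. On D2, and again on D9, all 4 sham libraries were in 1 run that held no TBI− library of that day. Group and run can therefore not be told apart between TBI− and sham libraries.

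**Figure D2:**
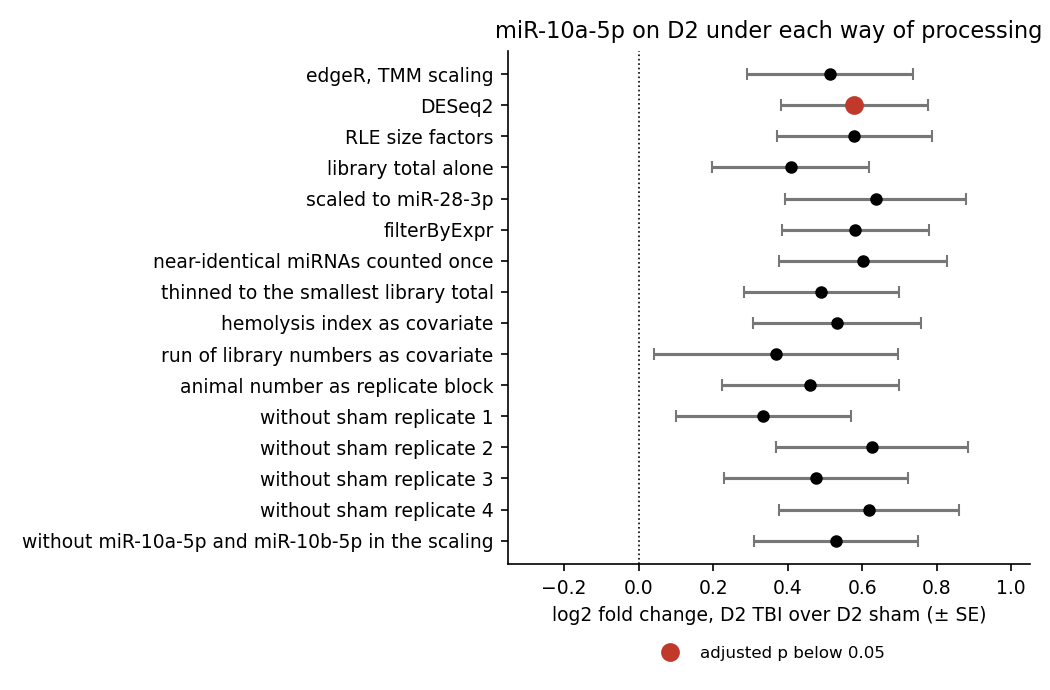
log2 fold change of miR-10a-5p, TBI over sham on D2, with its SE, for edgeR with TMM scaling and 15 other ways of processing the same counts. All estimates lie above 0, between 0.33 and 0.64, and DESeq2 alone (large point) falls below an adjusted p of 0.05.

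On D9 the mean level of miR-10a-5p was below that of D2 in every group, and the groups overlapped. The sham libraries held 41739, 35072, 73860 and 37353 CPM, of which rat 3 was above all 7 TBI+ libraries. TBI+ ran from 37916 to 61674 CPM (median 54148 CPM) and TBI− from 33122 to 89107 CPM (median 57605 CPM). log2FC was 0.33 for TBI against sham (SE 0.28, adjusted p = 0.675), 0.26 for TBI+ (SE 0.31, adjusted p = 0.78) and 0.39 for TBI− (SE 0.30, adjusted p = 0.665), by edgeR's quasi-likelihood test. The median of all 541 miRNAs tested was itself 0.27 for TBI against sham.

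miR-10a-5p was not differentially expressed between TBI+ and TBI− rats on either day. On D2 the means were 79199 ± 15842 CPM (n = 7) in TBI+ and 78857 ± 20303 CPM (n = 9) in TBI−, with a log2FC of −0.07 and an interval of 2 SE on either side from −0.45 to 0.32 (edgeR adjusted p = 1). On D9 they were 51318 ± 9315 CPM and 56407 ± 20019 CPM, with a log2FC of −0.12 and an interval from −0.62 to 0.37 (adjusted p = 0.959). The intervals hold differences of both signs, and the sign of both estimates changed between settings.

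Over all members, none of the 80 values from the 8 comparisons between groups was called, the lowest adjusted p being 0.215, and 7 had an unadjusted p below 0.05 in edgeR. DESeq2 called miR-10a-5p and miR-10b-5p, the same signal, for TBI against sham on D2 and no other member in these comparisons. Of all miRNAs tested, edgeR called 6.19% for TBI, 3.19% for TBI+ and 6.19% for TBI− against sham on D2, and 4.25%, 1.85% and 4.81% on D9, where the 23, 10 and 26 calls dropped to 0 without sham rat 2. Between TBI+ and TBI− it called 0% on both days, with 38 miRNAs at an unadjusted p below 0.05 on D2 and 22 on D9, and DESeq2 called 0 as well. With 10 members, of which several were rarely read, 0 calls against backgrounds of this size is not a result about the members.

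From D2 to D9, miR-10a-3p fell in both TBI+ and TBI− rats. On D2 it ran in TBI+ from 27.8 to 116 CPM (median 70.5 CPM) and in TBI− from 32.2 to 105 CPM (median 61.2 CPM). On D9 it ran from 7.34 to 23.6 CPM (median 19.3 CPM) and from 8.14 to 26.9 CPM (median 18.8 CPM). Every D2 library of the 16 TBI rats was above every D9 library of the same rats, and the level fell in 16 of 16. The lack of overlap was narrow. The lowest D2 value, 27.8 CPM, rests on 14 reads, and its gap to the highest D9 value, 26.9 CPM, is within the counting error of so few. The D9 libraries of TBI rats held 4 to 77 reads. log2FC was −1.86 in TBI+ (SE 0.33, adjusted p = 3.33e-05) and −1.88 in TBI− (SE 0.29, adjusted p = 1.69e-06), by edgeR's quasi-likelihood test. The D9 level was thus 0.275 times that of D2 in TBI+ and 0.272 times in TBI−.

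**Figure D3:**
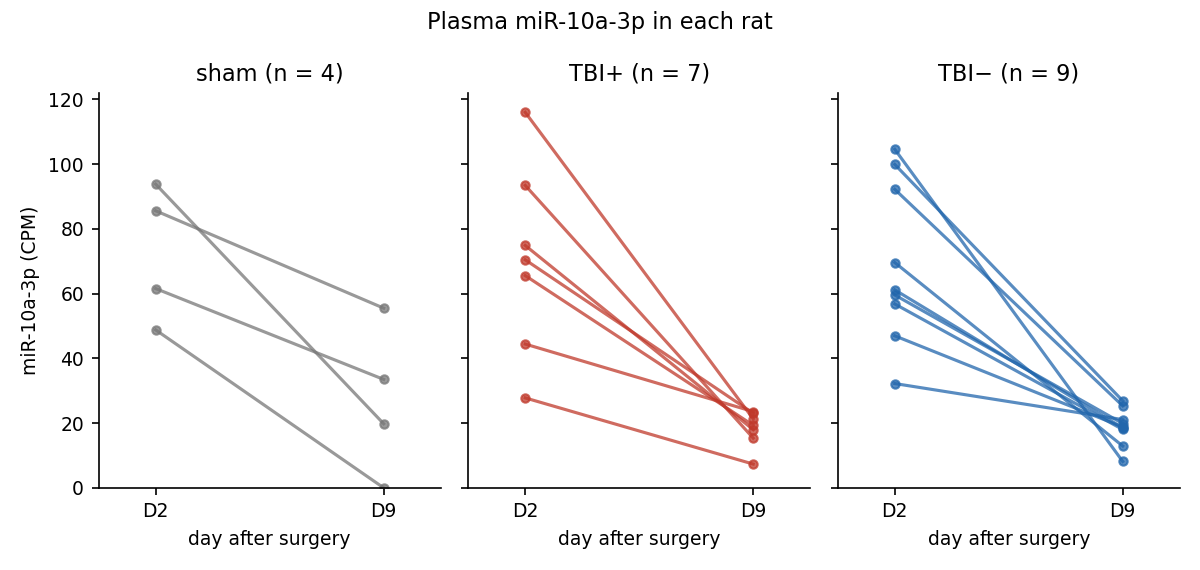
miR-10a-3p in CPM (linear axis from 0) in each rat on D2 and D9, with a line joining the 2 libraries of a rat. All 16 injured rats and all 4 sham rats go down, and in TBI the lowest D2 value, 27.8 CPM, lies just above the highest D9 value, 26.9 CPM.

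Sham rats went the same way with fewer reads. They held 48.8, 85.6, 93.8 and 61.6 CPM on D2 and 0, 55.5, 19.8 and 33.5 CPM on D9, where the last 4 values rest on 0, 9, 4 and 12 reads. The zero of sham rat 1, in the shallowest library, allows up to 21.3 CPM. log2FC was −1.37 (SE 0.48, adjusted p = 0.0795), short of the threshold, and the change in TBI did not differ from that in sham by edgeR's test of the difference (−0.50, SE 0.53, adjusted p = 0.835). The fall was therefore not shown to depend on the injury. Between groups on the same day miR-10a-3p differed little, with a log2FC for TBI against sham of 0.05 (SE 0.30, adjusted p = 1) on D2 and −0.45 (SE 0.46, adjusted p = 0.764) on D9.

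The fall of miR-10a-3p in TBI+ and in TBI− was called under all 11 alternatives, with a log2FC between −2.33 and −1.56. Values that do not overlap between the days were seen in 6 miRNAs of 581, all lower on D9, or 1.03% of those tested. The other 5 were miR-99b-5p, miR-22-5p, miR-124-3p, miR-145-5p and miR-129-5p. These 6 were picked by that pattern, after their values were seen. Within the 3 runs of library numbers, the TBI libraries averaged 72.3, 63.5 and 79.6 CPM of miR-10a-3p on D2 and 17.4, 22.2 and 17.4 CPM on D9. These means are given with no test, since the lack of overlap over all TBI libraries fixes that within a run, and TBI− rat 5 was in the same run on both days.

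The other arm of the same hairpin gave smaller values. miR-10a-5p averaged 79199 CPM on D2 and 51318 CPM on D9 in TBI+, and 78857 and 56407 CPM in TBI−, and was lower on D9 in 14 of 16 TBI rats but in 2 of 4 sham rats. log2FC was −0.57 in TBI+ (SE 0.24, adjusted p = 0.105), −0.47 in TBI− (SE 0.21, adjusted p = 0.118) and −0.30 in sham (SE 0.32, adjusted p = 0.695), none called by edgeR. With the rat as a block, which uses the fact that each rat was bled on both days, TBI− passed the threshold in the miR-10a-5p row (−0.56, adjusted p = 0.0483) but not in the miR-10b-5p row of the same signal (adjusted p = 0.0507), and TBI+ did not (−0.55, adjusted p = 0.0978). The change in TBI minus that in sham was −0.21 (SE 0.36, adjusted p = 1).

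The ratio of the arms, computed after these values had been seen, was compared between the days within each rat. On D2, TBI+ rats had 871 ± 267 reads of miR-10a-3p for each 1000000 reads of miR-10a-5p and TBI− rats 869 ± 174, and on D9 they had 366 and 373, with ranges of 124 to 488 and 141 to 709. The log2 ratio fell by 1.24 on average in TBI+ and by 1.302 in TBI−, in 7 of 7 and 9 of 9 rats. An exact two-sided sign-flip permutation test gave p = 0.0156 and p = 0.00391, the smallest these numbers of rats can give (adjusted over 6 tests, 0.0469 and 0.0234). These p-values are no independent support, since the larger fall of miR-10a-3p in the same rats was already known. The mean change of the log2 ratio in sham rats was −1.44 (SE 1.04), with a fall in 2 of 4, on 0 to 12 reads of miR-10a-3p on D9. The same exact two-sided sign-flip permutation test gave p = 0.5 in sham rats, where the smallest possible is 0.125. Whether the ratio changed differently in TBI and sham rats was not tested. Since the 5p reads cannot be assigned to miR-10a or miR-10b, the denominator is shared by both hairpins.

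miR-10b-3p was also lower on D9, less evenly. TBI− ran from 14.8 to 35.4 CPM on D2 and from 3.01 to 24.1 CPM on D9, and TBI+ from 9.92 to 29.6 CPM and from 1.63 to 24.5 CPM, so the days overlapped in both. It fell in TBI− (log2FC −1.002, SE 0.34, adjusted p = 0.0285), while the value in TBI+ was −0.57 (SE 0.38, adjusted p = 0.306), by edgeR's quasi-likelihood test. Whether TBI+ and TBI− changed differently was not tested. Its ratio to the 5p arm fell in 4 of 7 TBI+ rats and in 7 of 9 TBI− rats (exact sign-flip p = 0.578 and 0.0586). The mean change of the log2 ratio was −0.26 and −0.65. In sham rats it was −1.82, with a fall in 4 of 4 (exact sign-flip p = 0.125, the smallest possible), on 0 to 3 reads of miR-10b-3p on D9.

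In sham rats miR-10b-3p was called lower on D9 (adjusted p = 0.0332 by edgeR), on very few reads. The D2 libraries held 6, 45, 21 and 36 reads, or 25.7 ± 10.8 CPM, and the D9 libraries 0, 0, 1 and 3 reads. With each D9 library set to 3 reads, the highest count there, the mean level was 1.63-fold lower on D9. That value is no limit, since it leaves out the spread of the D2 libraries and the counting error of 1 and 3 reads. All 4 D2 libraries are in the first run of library numbers and all 4 D9 libraries in the third, so the day and the run cannot be told apart in sham rats. The call was lost without sham rat 2 (adjusted p = 0.216) or sham rat 3 (adjusted p = 0.133).

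In all, edgeR called 1 member lower on D9 in sham, 1 in TBI+ and 2 in TBI−, and none higher. Among all 581 miRNAs it called 5.68% in sham (33 miRNAs, and 2 without sham rat 2), 16% in TBI+ and 20.1% in TBI−, of which 3.1%, 11.2% and 12.9% of the miRNAs tested were lower on D9. A share of 1 or 2 in 10 is near those backgrounds. For the test of whether TBI and sham changed differently, 3.61% of miRNAs and no member were called (21 miRNAs in all, 91 at an unadjusted p below 0.05). The median log2FC over the 10 members was −0.24 in sham, 0.17 in TBI+ and −0.41 in TBI−, beside 0 for all miRNAs in each.

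**Figure D4:**
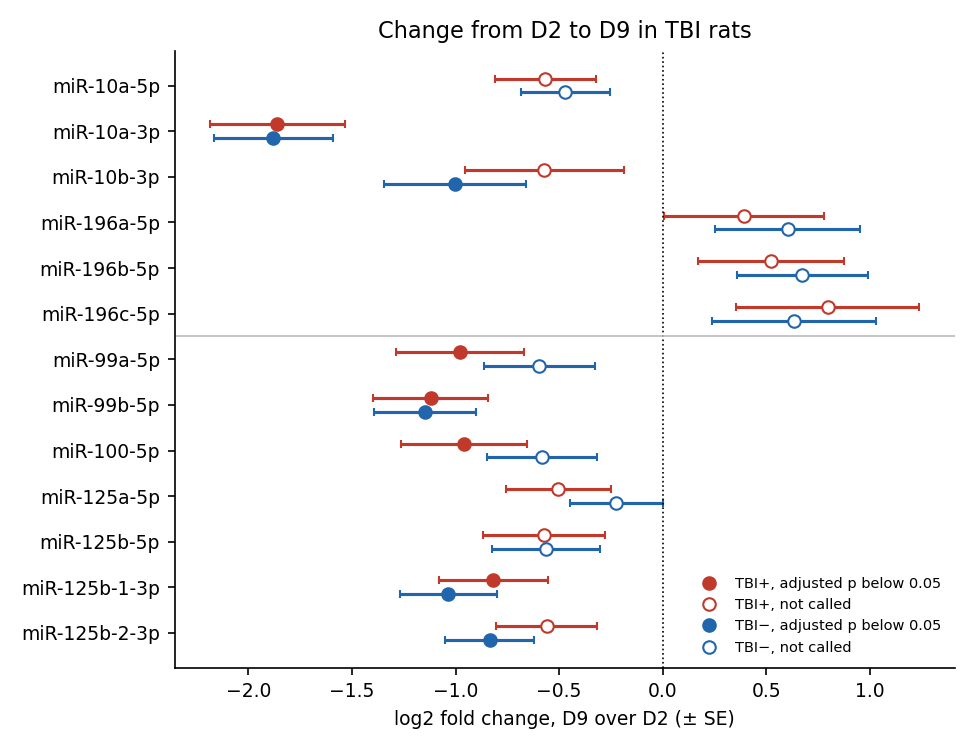
log2 fold change from D2 to D9 with its SE in TBI+ (red) and TBI− (blue) rats. Members are above the grey line and miR-99, miR-100 and miR-125 rows below it, and filled points have an adjusted p below 0.05. miR-10a-3p, at −1.86 and −1.88, is farthest from 0, and the miR-196 5p arms lie on the other side of 0 from the miR-10 arms, with open points.

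Markers of blood cells moved between the days too. The hemolysis index, the log2 ratio of the red-cell miRNA miR-451-5p to miR-23a-3p, averaged −0.52 in sham, −0.28 in TBI+ and −0.27 in TBI− on D2, and 1.13, 1.299 and 1.26 on D9. The index is a ratio of reads. The paper had checked the sequenced plasma for hemolysis by eye and by hemoglobin absorbance. The 5 red-cell rows (both arms of miR-451 and of miR-144, and miR-16-5p) summed to 17439 to 39626 CPM on D2 and 27955 to 74354 CPM on D9 in TBI+, and to 10789 to 48291 CPM and 17928 to 59052 CPM in TBI−. In sham rats they summed to 22478 to 31917 CPM and 13590 to 44768 CPM. With the index as a covariate, the D9 to D2 change of miR-10a-5p was −0.20 in TBI+ and −0.15 in TBI− (adjusted p = 0.805 and 0.872), and miR-10b-3p in TBI− was no longer called (−0.50, adjusted p = 0.635). miR-10a-3p was still called in both TBI groups with that covariate (highest adjusted p = 0.0155). Over all miRNAs, edgeR with that covariate called 29 of 581 in TBI+ and 31 of 581 in TBI−, against 16% and 20.1% without it. The loss of calls was thus not particular to these members. The index was itself higher on D9 in the mean of every group, so this fit separates it poorly from the day. The part of red-cell miRNA in any of these changes was not tested further. The myeloid and platelet marker miR-223-3p averaged 2053 CPM on D2 and 2480 CPM on D9 in TBI+ and 1642 and 2610 CPM in TBI−, and the lymphocyte marker miR-150-5p 15610 and 23448 CPM and 14992 and 21768 CPM. In sham rats the means were 2601 CPM on D2 and 1406 CPM on D9 for miR-223-3p, and 29909 and 27823 CPM for miR-150-5p, so the order of the days was the opposite of that in TBI. The neuronal miR-124-3p was listed at 0 in all sham libraries, and in TBI it ran from 11.1 to 71.7 CPM on D2 and from 0 to 6.11 CPM on D9. The liver marker miR-122-5p was listed at 0 reads in every library, and the muscle markers miR-206-3p and miR-133a-3p summed to at most 12.3 CPM. No absence from plasma is read from a row of 0 reads. The paper detected miR-434-3p and miR-9a-3p by RT-qPCR although the sequencing had not.

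The miR-196 5p arms did not follow miR-10. miR-196b-5p ran in TBI+ from 16.4 to 65.7 CPM (median 43.4 CPM) on D2 and from 27.7 to 105 CPM (median 40.4 CPM) on D9. In TBI− it ran from 9.89 to 59.6 CPM (median 31.0 CPM) on D2 and from 29.6 to 82.4 CPM (median 40.03 CPM) on D9. Sham rats held 30.3, 47.4, 47.7 and 60.1 CPM on D2 and 14.2, 49.3, 98.98 and 55.8 CPM on D9, the last on 2 to 20 reads. All groups overlapped on both days, and the days overlapped in all groups.

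By edgeR's quasi-likelihood test, the D9 to D2 log2FC of miR-196b-5p was 0.52 in TBI+ (SE 0.35, adjusted p = 0.306), 0.67 in TBI− (SE 0.31, adjusted p = 0.129) and 0.28 in sham (SE 0.51, adjusted p = 0.865), and it was higher on D9 in 12 of 16 TBI rats. miR-196a-5p gave 0.39 and 0.60 in TBI+ and TBI−, and miR-196c-5p 0.80 and 0.63, none called. miR-196a-5p was higher on D9 in 10 of 16 TBI rats and miR-196c-5p in 12 of 16. Over the 12 comparisons the lowest adjusted p of these 3 arms was 0.129, and none was called in any alternative, where the lowest was 0.0898. On D2, miR-196a-5p averaged 23.8 ± 5.98 CPM in sham, 19.0 ± 8.41 CPM in TBI+ and 13.4 ± 7.62 CPM in TBI−, a gradient within the spread of the rats (TBI against sham, log2FC −0.50, adjusted p = 0.468).

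**Figure D5:**
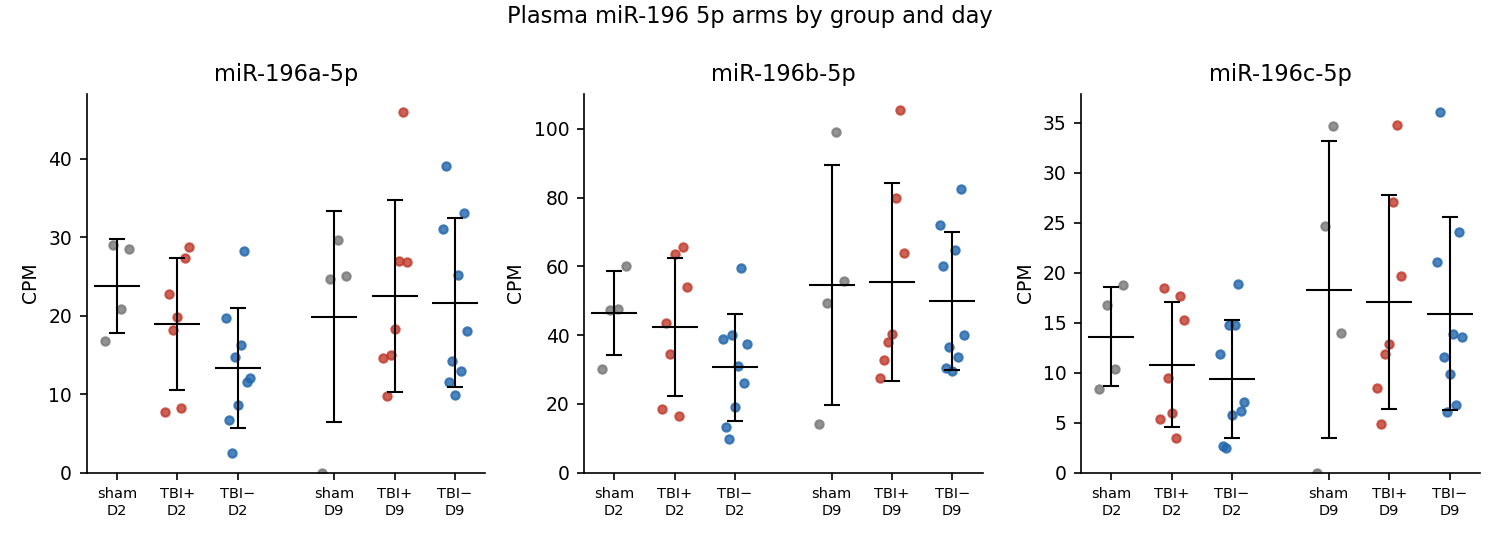
The 5p arms of miR-196a, miR-196b and miR-196c in each library, in CPM on linear axes from 0 with a scale of their own, by group and day. Points are rats, wide bars means and whiskers ± SD. miR-196b-5p is the highest of the 3 and the groups overlap in all panels.

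Across the 40 libraries the 3 miR-196 5p arms varied together, with Spearman's rho of 0.928 for a and b, 0.902 for a and c and 0.851 for b and c, whereas rho of miR-10a-5p with miR-196b-5p was 0.175. The arms of miR-196 differ by 1 base, and how reads matching more than 1 of them were counted is not given in the sources used here. The 2 miR-10 3p arms had a rho of 0.733 with each other and of 0.565 and 0.694 with miR-10a-5p, in the order a and b. These are descriptions over libraries that share rats, days and depth.

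The miRNAs whose pattern was closest to that of miR-10a-5p were the brain-enriched miR-129-5p (rho 0.656), miR-129-2-3p (0.652) and miR-129-1-3p (0.644), by Spearman's rho of log2(CPM + 1) over the 40 libraries, among 267 candidates with a median rho of −0.06. Within D2 rho was 0.490, 0.774 and 0.746, and within D9 0.345, −0.02 and −0.04, near 0 for the latter pair. miR-129-2-3p and miR-129-1-3p are themselves nearly the same in count.

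The related miRNAs comprised miR-99a, miR-99b and miR-100, whose mature 5p arms resemble that of miR-10, the miR-125 rows encoded beside them, and miR-615, 12 rows in all. miR-100-5p, of which the counts were within a few percent of those of miR-99a-5p so that the pair is 1 signal, is shown with its seed beside miR-99b-5p, which has the same one.
miR-99b-5p: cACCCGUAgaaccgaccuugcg
miR-100-5p: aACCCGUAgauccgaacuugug
None of the 12 rows was called in the 8 comparisons between groups. miR-99b-3p came closest on D2 (TBI against sham, log2FC 1.17, SE 0.38, edgeR adjusted p = 0.0617) and was called in 6 of 15 alternatives.

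From D2 to D9, 4 of the 12 fell in TBI+, 3 in TBI− and none in sham, and none rose, beside 11.2%, 12.9% and 3.1% of all miRNAs called lower on D9. The 4 in TBI+ include both miR-99a-5p and miR-100-5p, so they are 3 signals. Their median log2FC was −0.53, −0.59 and −0.51, beside 0 for all miRNAs. miR-99b-5p fell from 4035 ± 1482 to 1799 ± 578 CPM in TBI+ (log2FC −1.12, SE 0.28, adjusted p = 0.00358) and from 4040 ± 1006 to 1846 ± 708 CPM in TBI− (−1.15, SE 0.24, adjusted p = 0.000469), by edgeR's quasi-likelihood test, with no overlap of the days. miR-100-5p fell in TBI+ from 1716 to 844 CPM in the mean (−0.96, adjusted p = 0.0238), and gave −0.58 in TBI− (adjusted p = 0.121). miR-125b-1-3p fell in both (−0.82 and −1.03), miR-125b-2-3p in TBI− (−0.84), and miR-99a-5p in TBI+ (−0.98). With the rat as a block, miR-125b-1-3p was not called in TBI+ (adjusted p = 0.0865), while miR-99a-5p and miR-100-5p were called in TBI− too (adjusted p = 0.0362 and 0.0413).

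The 5p arms of miR-125 were not called. miR-125a-5p averaged 3137 ± 671 and 2119 ± 710 CPM on D2 and D9 in TBI+ (log2FC −0.50, edgeR adjusted p = 0.168), and miR-125b-5p 868 ± 273 and 566 ± 262 CPM (−0.57, adjusted p = 0.178). miR-615, encoded in the same cluster as miR-196a, was read at 7.81 ± 4.18 CPM and gave 0.42 in TBI+ and 0.50 in TBI−, neither called. Its sign was that of the miR-196 arms, and its counts of 1 to 25 reads per library allow no more than that.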

How the data were processed

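Plasma small RNA of 20 rats on D2 and D9 was sequenced in 40 libraries. The authors trimmed reads with Trimmomatic 0.36, discarded those under 17 nt, merged 2 flow cells per library, aligned with Bowtie2 to Rno6 and counted mature miRBase miRNAs with featureCounts. The deposited values are raw read counts of 752 miRNAs. How reads matching several miRNAs were counted is not given in the sources used here.

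CPM was each count scaled to 1000000 reads in its library. Comparisons used edgeR 4.0.16 (quasi-likelihood test, TMM scaling, Benjamini-Hochberg over all miRNAs with a read, called at adjusted p below 0.05) in R 4.3.3. Within-day fits held the 20 libraries of the day, and D9 against D2 all 40. DESeq2 1.42.0, other scalings, filters, covariates and left-out sham rats were alternatives, and the arm ratio (0.5 reads added to each arm), within-run means of the days and scaling without the miR-10 5p pair were added after the data were seen. Script steps were tested on simulated data. Total reads were 140636 to 2864893 per library, and p-values and limits for 0 cover counting and spread between rats only.

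Groups and rats came from the sample titles. The same number on both days marks the same rat, so the pairing of days comes from the labels. Deviations of the 2 libraries of a rat correlated at −0.30 to 0.39 (median −0.06). The library numbers fall into 3 runs (D2 and D9 libraries mixed), whose meaning the labels do not give. Named miRNAs were every member, the 5p arms of the related list, the 3 miRNAs closest to miR-10a-5p in rho and the 2 above and 2 below it in level. Outside that rule, the 3p arms of miR-99b and miR-125b, the miRNAs whose days did not overlap and markers of cell types were also named, the first 2 kinds after their values were seen. The members and lists were chosen with earlier results of these data known.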

Additional observations from a re-analysis of the deposited data

Results flagged for a closer look

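In 36 combinations of member, group and day, for the 6 members with enough reads, 1 library lay far from the rest of its group, against 1.8 that chance would give at 1 in 20. miR-196a-5p was at 0 CPM (0 reads) in sham rat 1 on D9, while the other 3 sham rats had 24.7, 29.7 and 25.1 CPM. That library was the shallowest, and a count of 0 there allows up to 21.3 CPM, so the gap could not be shown to be one of level.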

How the results depend on the processing

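Of 12 results for miR-10a-5p, DESeq2 changed 3, calling TBI against sham on D2 (0.58 on the log2 scale, adjusted p = 0.0321) and D9 against D2 in TBI+ (−0.63, adjusted p = 0.0246) and TBI− (−0.51, adjusted p = 0.0384). The last was also called after thinning to the smallest library total (−0.61, adjusted p = 0.0361) and with the rat as replicate block (−0.56, adjusted p = 0.0483). That block changed no other call of a member, and those of 3 related miRNAs stand with them. The sign changed for TBI+ against TBI− on D2 with the library total alone (0.0062), miR-28-3p scaling (0.055), the run covariate (0.093), the animal number as replicate block (0.036), 1 run of library numbers (0.14) and the exact permutation test (0.029, p = 0.869), and on D9 within 1 run (0.14). It also changed for D9 against D2 in sham with miR-28-3p scaling (0.0048) and the hemolysis index (0.089). None of these was called, and the causes were not tested. Animal numbers across groups are only numbers.

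Leaving out each sham rat gave 0.33 to 0.63 for TBI, 0.30 to 0.60 for TBI+ and 0.36 to 0.66 for TBI− against sham on D2. On D9 it gave 0.05 to 0.59, −0.014 to 0.52 and 0.11 to 0.65. It gave −0.70 to −0.03 for the days in sham and −0.48 to 0.19 for the change in TBI minus that in sham. The calls among the other 9 members numbered 4, but 7 with DESeq2 and 2 with miR-28-3p scaling. These 9 include miR-10b-5p, the same signal as miR-10a-5p, and its D2 call for TBI against sham is among the 7. The median log2FC of all miRNAs on D9, TBI against sham, was 0.27 with TMM, 0.11 with RLE size factors and 0.07 with miR-28-3p scaling.

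miR-10b-3p, D9 against D2, lost its call in sham with RLE size factors (−2.32), miR-28-3p scaling (−2.19), the hemolysis index (−1.98) and the run covariate (−2.10), and in TBI− with miR-28-3p scaling (−0.94), thinning (−0.61) and the hemolysis index (−0.50). Depth limited the sham libraries of D9, where 3 reads were 8.38 to 21.3 CPM, and all miR-196 3p arms.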
